A study of Homo sapiens with 4 samples.

Results

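The olfactory receptor (OR) genes of chromosome 11 were described in a CUT&Tag experiment on CHAF1A, the biggest subunit of CAF-1, a histone chaperone. The members were the RefSeq protein-coding genes of GRCh38 chromosome 11 whose symbol starts with OR and a digit. This gave 171 genes, and 168 of them, out of 19884 protein-coding genes on chromosomes 1 to 22, X and Y, had a position on the chromosome. RefSeq lists the other 3, OR8U8, OR8U9 and OR9G9, after the genes of the chromosome's own sequence and with positions among unrelated genes, so they were not placed. The cells were RBE, an established line of human intrahepatic cholangiocarcinoma, a cancer of bile duct cells. They received an siRNA against CHAF1A (2 samples) or a control siRNA (2 samples) by lipid transfection and were collected after 48 hours; how far the siRNA lowered CHAF1A was not measured here. CHAF1A is the target by the series' design text, and the sources used here name no antibody. Each group was analysed from 1 peak list, read from its name as the list of the CHAF1A siRNA group or of the control siRNA group. Neither list keeps its samples apart, so differences between the lists lack any check on replicates and carry no p-value. Below, the siCHAF1A list is that of the CHAF1A siRNA group.

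In CUT&Tag a transposase tethered to an antibody cuts chromatin around the antibody's target, and a peak is a stretch where the sequenced fragments pile up. CAF-1 places new histones H3 and H4 on DNA just after the replication fork. OR genes encode the odorant receptors of the nose, each olfactory neuron uses a single one of them, and the rest are kept silent in compact chromatin; in mouse olfactory neurons that chromatin carries the histone mark H3K9me3. Outside the nose most OR genes are silent, and their clusters are known as late-replicating, gene-poor and AT-rich DNA. Replication timing, histone marks and RNA of these cells were not analysed here, so the silence of the clusters was not measured. The biliary markers KRT19, EPCAM and SOX9 had a peak at a gene end in both lists and KRT7 in the control list only. The hepatocyte markers ALB, APOA1 and TTR and the T cell markers CD3D, CD3E and PTPRC had none in either list. Of the olfactory neuron markers, GNAL had a peak in both lists, ADCY3 in the control list only, and OMP, CNGA2 and LHX2 none. Over all protein-coding genes 56.5% had a peak in both lists, so such peaks alone do not identify a cell type.

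The siCHAF1A list held 97653 peaks and the control list 76313. Each peak carries the authors' own fold enrichment, the ratio of the reads at its summit to its background, and their −log10 q, both set within a single list. The number of reads at the summit and the background were solved from the fold and the p of each peak. The most frequent background on chromosome 11 was 8.49 reads in the siCHAF1A list and 6.34 reads in the control list, so fold and q also depend on how much data stands behind each list, and read totals were not used here. Intervals are 95% exact binomial intervals for shares and exact Poisson intervals for densities, and cover counting error only.

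The 168 genes fell into 13 clusters of 2 or more genes with neighbours under 100 kb apart, which held 162 genes, and 6 isolated genes. With 1 kb added at each side, they spanned 4.67 Mb. The median distance between neighbouring genes was 21.2 kb, and the median gene was 1103 bp long. OR genes have their coding sequence in a single exon, and many are annotated as little more than that. The 55 class I genes (families OR51 to OR56, the class shared with fish) lay in 3 clusters of chromosome band 11p15, and the 113 class II genes in the others. The largest cluster ran from OR4C15 to OR9G4 (chromosome 11, 55554469 to 56748697) with 43 genes.

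Promoters of these genes are shown first, for their base composition and their place beside the peaks. RefSeq promoter sequences (GRCh38.p14, 250 bases before to 50 bases after the annotated start) were at hand for 135 of the 168 genes. The 4 below are the OR51E1 promoter, whose downstream edge lies 4 bp from a siCHAF1A peak, the OR52B6 promoter, the only one of the 135 that a control peak overlapped, the OR52W1 promoter, whose gene had a peak in both lists, and the AT-rich OR56B1 promoter, 111 bp from a control peak. Capitals mark TATAAA, the sequence of the TATA box, and TAATTA, a core bound by homeodomain factors, on either strand. Matches at any position of the window are marked, so a TATAAA need not be a TATA box. All are on the plus strand, at chr11:4643732-4644031, chr11:5580627-5580926, chr11:6198974-6199273 and chr11:5736198-5736497. For genes annotated as little more than their coding sequence, the annotated start can be that of the coding sequence. The last 50 bases of the OR52W1 sequence begin with ATG. Such a window need not hold the start of transcription, and it is called a promoter here only by its position.
OR51E1: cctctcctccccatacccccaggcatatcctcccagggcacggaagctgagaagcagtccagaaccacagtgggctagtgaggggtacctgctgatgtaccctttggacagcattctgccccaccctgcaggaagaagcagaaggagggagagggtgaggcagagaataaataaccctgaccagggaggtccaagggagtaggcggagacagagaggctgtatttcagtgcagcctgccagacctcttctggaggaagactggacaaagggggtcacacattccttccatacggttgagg
OR52B6: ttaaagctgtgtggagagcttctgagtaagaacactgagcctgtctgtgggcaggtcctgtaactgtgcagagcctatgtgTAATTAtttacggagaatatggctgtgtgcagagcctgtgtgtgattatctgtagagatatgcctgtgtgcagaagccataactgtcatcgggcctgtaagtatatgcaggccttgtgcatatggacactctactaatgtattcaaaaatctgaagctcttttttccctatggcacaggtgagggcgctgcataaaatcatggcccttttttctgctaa
OR52W1: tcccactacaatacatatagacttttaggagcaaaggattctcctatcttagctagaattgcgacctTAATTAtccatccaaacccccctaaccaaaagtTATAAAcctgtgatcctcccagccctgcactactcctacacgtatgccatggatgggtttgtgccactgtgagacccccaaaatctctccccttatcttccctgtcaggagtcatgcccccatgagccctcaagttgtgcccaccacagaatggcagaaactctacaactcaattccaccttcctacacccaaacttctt
OR56B1: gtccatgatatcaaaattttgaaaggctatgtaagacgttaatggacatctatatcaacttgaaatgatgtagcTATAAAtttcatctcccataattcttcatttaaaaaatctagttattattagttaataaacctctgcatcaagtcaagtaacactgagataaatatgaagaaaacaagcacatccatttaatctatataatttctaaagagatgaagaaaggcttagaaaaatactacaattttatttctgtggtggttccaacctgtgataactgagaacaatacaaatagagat
The OR51E1 promoter held neither motif, OR52B6 held TAATTA, OR56B1 held TATAAA, and OR52W1 held both without overlap.

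OR promoters were AT-rich and poor in CpG. The median GC content was 37.0% in the 135 chromosome 11 OR promoters, with a range of 24.3% to 57.0%, and 62.7% in the 15842 protein-coding promoters of the table. OR51E1 had the highest GC content of the 135. The median ratio of observed to expected CpG was 0.113 in OR promoters and 0.763 in all promoters. TATAAA was present in 35.6% of OR promoters and 9.63% of all promoters, and TAATTA in 24.4% and 3.34%. The palindrome bound by EBF factors, which act on OR genes in mouse olfactory neurons, was present in 1.48% of OR promoters and 1.4% of all promoters. The 179 OR promoters of other chromosomes had a median GC content of 38.3%, a CpG ratio of 0.129, TATAAA in 35.2%, TAATTA in 21.8% and the EBF palindrome in 0.559%. Each motif was searched on both strands in windows of 300 bases, and a match is not a site of binding. None of the 135 OR promoters was overlapped by a siCHAF1A peak and 1 (0.741%) by a control peak. The 179 OR promoters of other chromosomes were close to this, with 2 (1.12%) overlapped in the siCHAF1A list and 1 (0.559%) in the control list. Of all protein-coding promoters, 52.1% were overlapped in the siCHAF1A list and 51.4% in the control list. Where the annotated start of an OR gene is that of its coding sequence, its window is unlike one at a start of transcription. The comparisons with all promoters, and the GC classes below, are limited by this.

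The first question is how often OR genes had a peak within 1 kb of either gene boundary. Of the 168 genes, 9 had one in the siCHAF1A list (5.36%, 2.48 to 9.93) and 4 in the control list (2.38%, 0.652 to 5.98). Over all protein-coding genes the shares were 64.6% in the siCHAF1A list and 61.4% in the control list. The other 1129 protein-coding genes of chromosome 11 had shares of 63.8% and 60.7%. OR genes of other chromosomes (221 genes) had 13.6% (9.35 to 18.8) in the siCHAF1A list and 9.50% (5.98 to 14.2) in the control list. The keratin-associated protein genes, another clustered family of short genes with narrow expression, had 25.5% and 18.1% of 94. Neighbouring genes can share a peak, and a short gene offers a shorter window than a long one.

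**Figure D1:**
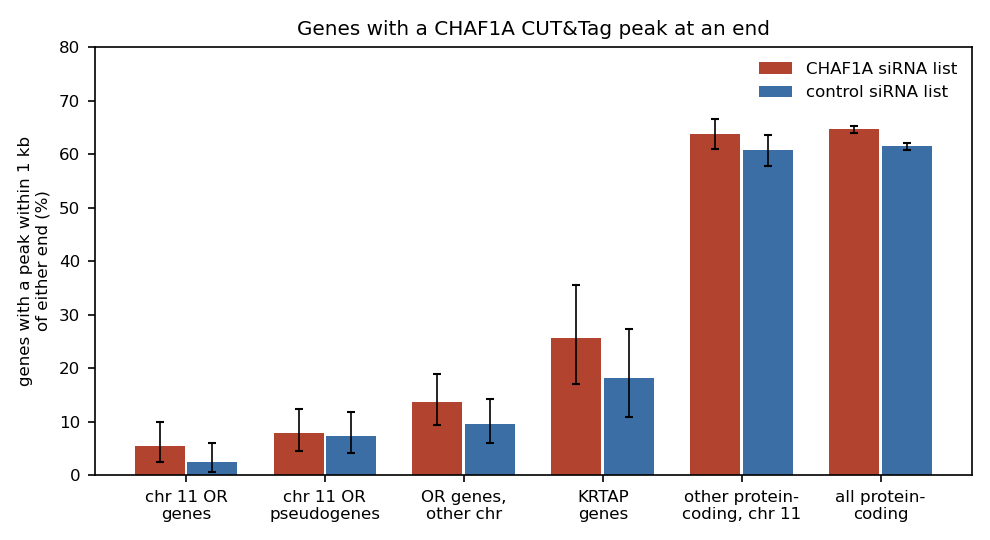
Percent of genes with a peak within 1 kb of either end in the CHAF1A siRNA list (red) and the control siRNA list (blue) for 6 gene groups; bars are shares and lines 95% exact binomial intervals. Chromosome 11 OR genes stand at 5.36% and 2.38%, against 64.6% and 61.4% of all protein-coding genes.

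In all, 156 OR genes were without a peak, 8 were found by siCHAF1A peaks alone, 3 by control peaks alone and 1 by both. These shares were 92.9%, 4.76%, 1.79% and 0.595%, where 8.1% of all protein-coding genes had a siCHAF1A peak only, 4.91% a control peak only and 56.5% a peak in both. Class I genes had 5 of 55 in the siCHAF1A list and 3 of 55 in the control list, and class II genes had 4 of 113 and 1 of 113. The 205 OR pseudogenes of chromosome 11, remains of former receptor genes, had 16 in the siCHAF1A list (7.80%) and 15 in the control list (7.32%), 7 of them in both. Their intervals, 4.53 to 12.4 and 4.15 to 11.8, overlapped those of the intact genes. The pseudogenes were not limited to the clusters. Outside them lay OR7E12P, OR7E13P and OR7E2P, with a control peak only, and OR7E117P, OR7E11P and OR7E126P, with a peak in both lists. Place and pseudogene status are therefore not separated in this comparison.

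The single OR gene with a peak in both lists was OR52W1 (chromosome 11, 6199224 to 6200186), a class I gene and the last of its cluster. In the siCHAF1A list its peak lay at 6199295 to 6199999, with 48 reads at the summit and a fold of 3.93. The control peak ran from 6199446 to 6199679, at 4.42 and 40 reads. The summits lay at the same base, inside the gene.

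Among the 8 genes with a siCHAF1A peak only, OR9G4 had the strongest (56740493 to 56740867, fold enrichment 4.85, −log10 q 15.8, 45 reads). That peak lay within 1 kb of the pseudogene OR9G3P as well. OR56B4 followed at 4.22 (−log10 q 11.7), and its peak lay within the gene (6107975 to 6108663). OR9G1 had 3.57 (−log10 q 9.75); this peak met a control peak starting beyond the window, so the site itself was in both lists. OR10Q1 had a pair of siCHAF1A peaks, the stronger with a fold enrichment of 3.69. OR51D1 and OR51E1, neighbours in the class I cluster, shared 1 peak at 4644035 to 4644433 (fold enrichment 3.29, 34 reads), at the annotated start of OR51E1. By the strongest peak of each gene, OR52N4 and OR2D3 had the weakest, with fold enrichments of 3.16 and 3.06 and −log10 q of 5.80 and 5.30. These 8 genes had 8 peaks between them, and apart from the OR9G1 peak none was overlapped by a control peak.

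The 3 genes with a control peak only were OR52B6, OR4S1 and OR56B1. The OR52B6 peak (5580880 to 5581484) began just inside the gene (5580877 to 5581884), with 33 reads, a fold of 4.63 and a −log10 q of 11.2. OR4S1 had a fold enrichment of 3.54 with 25 reads and OR56B1 3.4 with 24 reads; OR56B1 lies inside the long annotation of OR52N4, on which its peak also falls. The summit lay inside an OR gene in 6 of the 9 siCHAF1A peaks and in 3 of the 4 control peaks at OR gene ends.

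OR51E1 and OR51E2 are the members best known outside the nose, as receptors of prostate tissue. OR51E2 (4680171 to 4697853) had none at its ends; a siCHAF1A peak with a fold enrichment of 2.95 lay inside the gene at 4682151 to 4682507. Neither list had an end peak at the OR51B genes (OR51B2, OR51B4, OR51B5 and OR51B6), which sit beside the beta-globin locus. OR51B5 is annotated over 165335 bp, and the siCHAF1A list had 2 peaks in it, with fold enrichments of 3.80 and 4.11, where the control list had none. This long annotation overlaps other OR genes. The peak at 3.80 also lay inside OR51M1, and the peak at 4.11 on the pseudogene OR51A10P.

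The second question is how many peaks the clusters held as a whole. The cluster spans held 68 peaks in the siCHAF1A list and 34 in the control list. That is 14.6 peaks per Mb (11.3 to 18.5) in the siCHAF1A list and 7.28 per Mb (5.04 to 10.2) in the control list. The flanks of up to 500000 bp of the clusters had 40.4 and 31.4 peaks per Mb, and the rest of chromosome 11 had 39.0 and 31.8. Single clusters differed in this. The cluster of 43 genes had 11.7 and 6.69 peaks per Mb, close to its own flanks of 14.4 and 6.19. The cluster from OR52N4 to OR52W1 had 29.4 and 8.41, beside flanks of 79.5 and 53.0. More than 1 kb from any protein-coding gene, the stretches between clustered OR genes had 13.1 (9.34 to 17.8) and 6.21 (3.74 to 9.70) peaks per Mb, and chromosome 11 outside the spans had 31.9 and 25.9. Lengths of the rest of the chromosome and of the genome count 100 kb bins that hold a gene or a peak, which leaves out unannotated stretches without peaks.

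**Figure D2:**
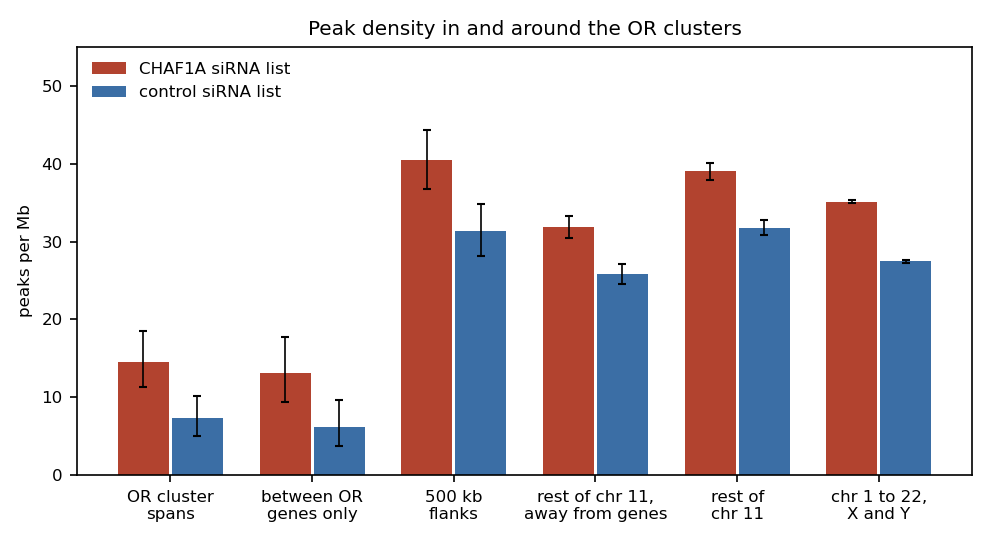
Peaks per Mb in the CHAF1A siRNA list (red) and the control siRNA list (blue) in the OR cluster spans, between OR genes away from protein-coding genes, in the flanks, in the rest of chromosome 11 and genome-wide; lines are 95% Poisson intervals of counting error. The spans hold 14.6 and 7.28 peaks per Mb, against 35.1 and 27.5 on chromosomes 1 to 22, X and Y.

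Of the 68 siCHAF1A peaks, 9 lay at OR gene ends, 44 between clustered genes and 15 inside OR genes more than 1 kb from an end. The 34 control peaks divided into 4, 26 and 4. The gaps between clustered genes made up 3.62 Mb of the 4.67 Mb of the spans. The windows at gene ends, which reach into the gaps, covered 0.572 Mb, so most peaks between genes also goes with the larger length. Long non-coding RNA genes held 10 siCHAF1A peaks and 1 control peak. Most of those siCHAF1A peaks lay in LOC112268071 and LOC283299, and the control peak lay in LOC112268071. Within 1 kb of an OR pseudogene lay 9 siCHAF1A peaks and 7 control peaks. The shares of all peaks at such places were not computed, so these counts have no background beside them.

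In the class I clusters the density was 18.8 peaks per Mb (12.7 to 26.9) in the siCHAF1A list and 10.7 (6.21 to 17.1) in the control list, and in the others 12.4 (8.74 to 17.0) and 5.53 (3.22 to 8.85), so the intervals overlapped. The cluster from OR52N4 to OR52W1 had 14 siCHAF1A peaks and 4 control peaks, and that from OR9Q1 to OR5B21 had 10 and 4. The cluster of 43 genes had 14 and 8, and that from OR52B4 to OR51V1 had 12 and 11. The cluster from OR5P2 to OR10A3 had 4 siCHAF1A peaks and no control peak, and that from OR4B1 to OR4C5 had 2 siCHAF1A and 3 control peaks.

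Of the 6 isolated genes only OR2AT4 held a peak, inside the gene and in the siCHAF1A list (fold 4.01). In 4 clusters with 31 genes neither list had a peak. The longest stretch of this kind was the pair of clusters at band 11q24, OR6X1 to OR10G7 and OR10D3 to OR8A1, with 22 genes over 0.680 Mb. For a count of 0 over this length, an upper limit of 3 counts, used in place of the exact interval, comes to 4.41 peaks per Mb. Since these clusters were picked for having no peak, this limit does not bound their density. The flanks of these clusters were sparse too: beside OR6X1 to OR10G7 the density was 4.69 peaks per Mb in each list, and beside OR10D3 to OR8A1 it was 12.7 in each list. The 7 genes from OR5AN1 to OR4D9 (59358895 to 59520703) also had none, between flanks of 46.1 and 39.1 peaks per Mb. There the limit of 3 counts comes to 18.3 peaks per Mb, with the same reservation.

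**Figure D3:**
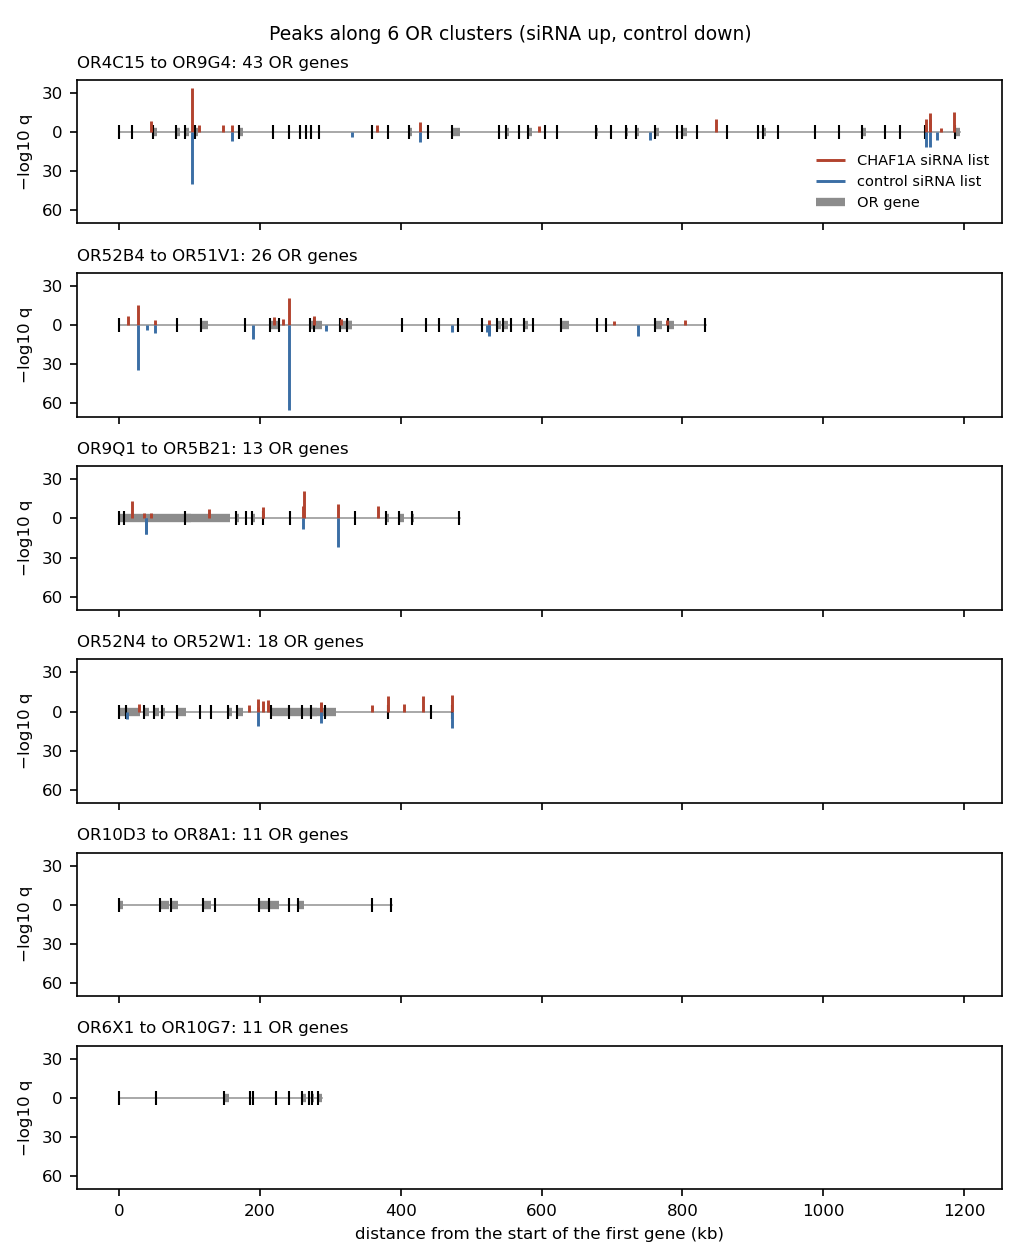
Peaks along 6 OR clusters by distance from the start of the first gene; lines give −log10 q at the summit, siCHAF1A list upward (red) and control list downward (blue), black ticks are gene starts and grey bars OR genes. The 2 clusters at the bottom, with 11 genes each, have no peak in either list. The tallest lines, up to 33.7 in the siCHAF1A list and 64.8 in the control list, lie between OR genes. That of 64.8 lies at an end of TRIM68, a gene outside the OR family.

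The peaks with the highest −log10 q lay between OR genes, where most of the length of the spans lies. In the class I cluster from OR52B4 to OR51V1 they lay at the ends of TRIM68 and TRIM21, genes of ubiquitin ligases embedded among the receptors. The TRIM68 peak had a fold enrichment of 5.25 and 55 reads in the siCHAF1A list, and 10.0 and 102 reads in the control list. The TRIM21 peak had 4.85 and 45 reads in the siCHAF1A list, and 8.08 and 62 reads in the control list. Also inside the spans, UBQLNL had a siCHAF1A peak at an end, and MMP26, TRIM51 and TMEM225 had no end peak in either list. More than 1 kb from the ends, MMP26 held peaks of both lists and TRIM51 a control peak. Only 4 siCHAF1A peaks and 2 control peaks of the spans lay at ends of non-OR protein-coding genes.

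Away from any protein-coding gene, the strongest site was in both lists. It lay 3975 bp, counted from the summit like the distances that follow, from OR4C6 at 55657887 to 55658482 in the siCHAF1A list (fold enrichment 7.17, −log10 q 33.7, 67 reads) and at 55657854 to 55658532 in the control list (8.49, 39.7, 69 reads). A site between OR10W1 and OR5B17 was also in both, at 58334727 to 58334939 with a fold enrichment of 4.11 in the siCHAF1A list and 58334727 to 58335067 with 6.54 in the control list. Shared sites of moderate strength lay 19247 bp before OR56A3 (5922783 to 5923383, fold 3.90, in the siCHAF1A list and 5922647 to 5923603, fold 4.63, in the control list) and just past OR9G1 (control peak 56705367 to 56705921, fold 4.16).

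Other strong sites were in 1 list. Among siCHAF1A peaks between genes, those not overlapped by a control peak were led by 58286368 to 58286565, which lay 18261 bp past OR10W1 (fold 5.59, 52 reads), 1212 bp from a control summit, and 48356043 to 48356460 near OR4C5 (fold 5.06, 47 reads). They were followed by 6800922 to 6801252 near OR6A2 (4.74), 56706457 to 56706852 near OR9G1 (4.49) and 6157163 to 6157462 near OR52B2 (4.22). In the control list the strongest such peak was 6812477 to 6812647, 12838 bp from OR6A2 (fold 7.08, −log10 q 25.8, 51 reads), whose nearest siCHAF1A summit was 6185 bp away. The next was 4556596 to 4556778 near OR52M1 (4.49, 32 reads).

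The third question is how the peaks of the clusters compared in strength and overlap. The median fold enrichment of cluster peaks was 3.37 in the siCHAF1A list and 3.91 in the control list, where the whole lists had 3.19 and 3.72. Their median −log10 q was 6.86 and 7.85, and that of the whole lists was 8.50 and 9.82. The median summit held 31 reads in the siCHAF1A list and 28.5 in the control list, with ranges of 23 to 67 and 20 to 102. The background was within 0.02 reads of that most frequent value for 56 of the 68 siCHAF1A peaks and 25 of the 34 control peaks. The median width was 284.5 bp and 262.5 bp, against 340 bp and 327 bp in the whole lists.

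Of the siCHAF1A cluster peaks, 17 of 68 (25%, 15.3 to 37.0) were overlapped by a control peak, and of the control cluster peaks 16 of 34 (47.1%, 29.8 to 64.9) were overlapped by a siCHAF1A peak. In the whole lists these shares were 47.5% and 61.9%. Where cluster peaks overlapped, the median distance between summits was 85 bp for siCHAF1A peaks and 77 bp for control peaks. Where they did not, the median distance to the nearest summit of the other list was 21033 bp and 11420.5 bp. Among peaks with a −log10 q of 10 to 20, 4 of 14 siCHAF1A cluster peaks (28.6%) were shared, where 67.0% of that class were shared in the whole list, and 4 of 8 control cluster peaks (50%), where 71.0% were. Among peaks with a −log10 q of 5 to 10 the shares were 7 of 32 (21.9%) and 30.2% in the siCHAF1A list, and 8 of 15 (53.3%) and 47.1% in the control list. Under 5 they were 4 of 19 (21.1%) and 13.8% in the siCHAF1A list, and none of 6 and 30% in the control list. At 20 or more they were 2 of 3 (66.7%) and 96.9% in the siCHAF1A list, and 4 of 5 (80.0%) and 91.2% in the control list. The number of cluster peaks in a class was small, and no test of these differences was made.

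**Figure D4:**
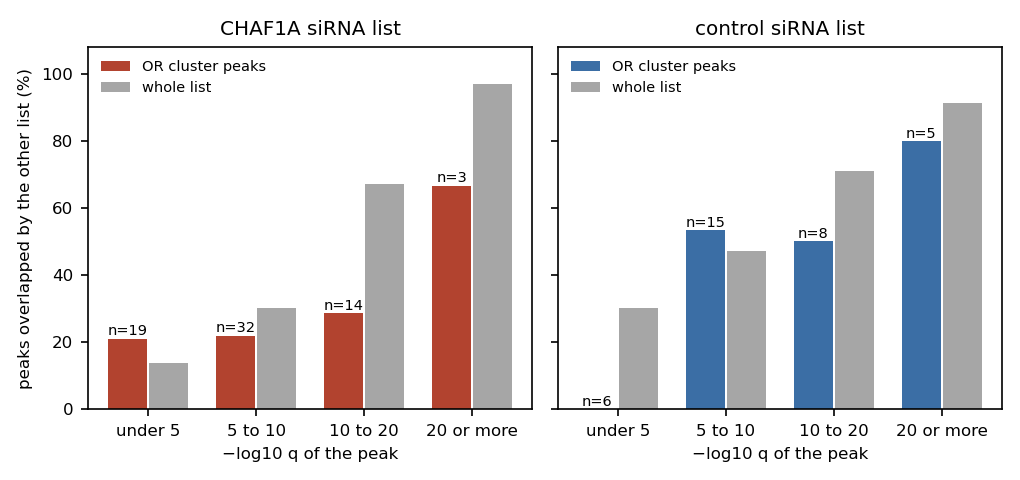
Percent of peaks overlapped by the other list, by −log10 q, for OR cluster peaks (coloured, with their number) and for the whole list (grey), in the CHAF1A siRNA list (left) and the control siRNA list (right). In the class of 10 to 20, OR cluster peaks stand at 28.6% in the siCHAF1A list and 50% in the control list, against 67.0% and 71.0% of the whole lists.

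The siCHAF1A list had 2.0 times as many cluster peaks as the control list (1.31 to 3.11 by counting error), where the ratio was 1.28 for the whole lists and 1.23 for chromosome 11 outside the spans. The ratio was 2.43 (1.44 to 4.25) among cluster peaks with −log10 q under 10 (51 and 21 peaks, whole lists 1.5). At 10 or more it was 1.31 (0.598 to 2.93, 17 and 13 peaks, whole lists 1.05). Both intervals included the ratio of the whole lists in the same class. With equal numbers of peaks per list the ratio was 1.29, and with siCHAF1A pileups scaled to the control background it was 1.56, so its size varied with the threshold and the scaling. An effect of the siRNA and the depth of the lists cannot be told apart here.

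The fourth question is whether a low GC content went along with the sparse peaks. Over all genes other than OR genes, the share with a peak at an end followed the GC content of the promoter. It was 20.2% in the siCHAF1A list and 19.8% in the control list for the 738 genes under 40% GC, 36% and 31.1% for 40 to 50%, 64.8% and 61.3% for 50 to 60%, and 77.7% and 74.8% for 60% and over. OR genes of chromosome 11 under 40% GC had 2 of 86 in the siCHAF1A list (2.33%, 0.283 to 8.15) and 1 of 86 in the control list (1.16%, 0.0294 to 6.31). At 40 to 50% GC they had 2 of 43 in each list (4.65%, 0.568 to 15.8). At 50 to 60% GC they had 1 of 6 in the siCHAF1A list (16.7%, 0.421 to 64.1) and none of 6 in the control list (upper limit 45.9%). The intervals of OR genes lay under those of other genes in both lists under 40% and at 40 to 50% GC; at 50 to 60% they overlapped in the siCHAF1A list and did not in the control list. These classes cover the 135 genes with a promoter sequence, of which 5 (3.70%, 1.21 to 8.43) had a siCHAF1A peak at an end and 3 (2.22%) a control peak. Of the 33 genes left out, 4 had a siCHAF1A peak (12.1%, 3.4 to 28.2) and 1 a control peak (3.03%), so the classes hold 5 of the 9 OR genes with a siCHAF1A peak. Gene length differed as well, with a median of 1103 bp in OR genes and 24443 bp in all protein-coding genes, and its part was not tested.

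**Figure D5:**
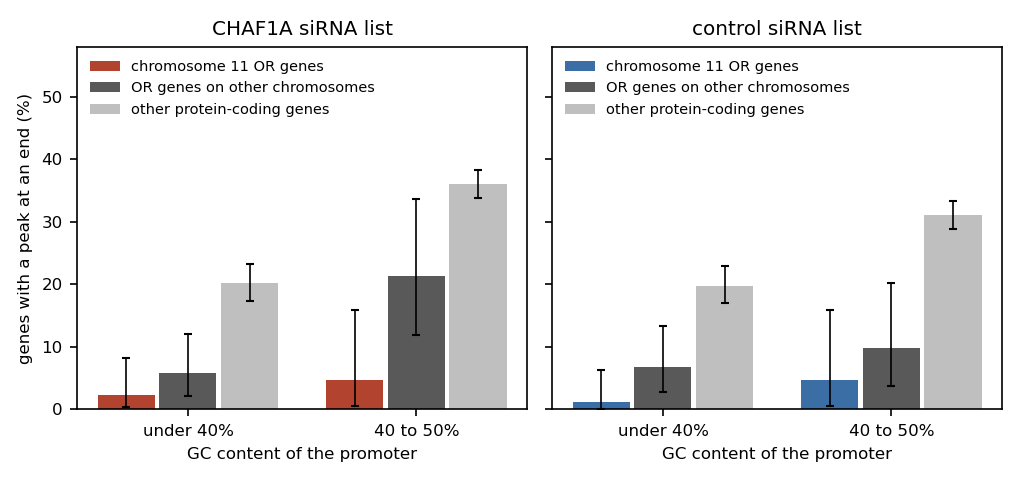
Percent of genes with a peak at an end by the GC content of the promoter, in the CHAF1A siRNA list (left) and the control siRNA list (right), for chromosome 11 OR genes (coloured), OR genes elsewhere (dark grey) and other protein-coding genes (light grey), with 95% exact binomial intervals. Under 40% GC, OR genes of chromosome 11 stand at 2.33% and 1.16% and other protein-coding genes at 20.2% and 19.8%.

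Of 29 genes of olfactory signalling and OR gene choice, 12 (41.4%) had a peak by the same window in the siCHAF1A list and 13 (44.8%) in the control list, with 10 in both, beside 64.6% and 61.4% of all protein-coding genes. RIC8B, an exchange factor of the olfactory G protein, had the strongest, with a fold enrichment of 11.7 in the siCHAF1A list and 12.2 in the control list. CNGA4, a subunit of the olfactory cyclic nucleotide channel next to the class I clusters, had 7.12 and 10.1; this peak spanned the lower boundary of the gene. GNAL, the olfactory G protein itself, had 4.44 and 4.45, and EBF1, a transcription factor of olfactory neurons and B cells, had 3.87 and 3.19. LDB1, the cofactor that joins OR enhancers in mouse, had 2.26 and 2.94. ATF5, a stress factor needed for olfactory neurons in mouse, had 6.06 and 8.02, and ARRB2, an arrestin that binds activated receptors, had 5.94 and 6.69. KDM1A, a histone demethylase needed for OR choice in mouse, had 5.17 and 6.40, and GNG13 and LBR also had a peak in both. Peaks in 1 list were at CNGB1 and PDE1C in the siCHAF1A list and at ADCY3, RTP2 and EBF2 in the control list. OMP, the olfactory marker protein gene of chromosome 11, and CNGA2, ANO2, RTP1, REEP1, STOML3, SLC24A4, PDE4A, GRK3, LHX2, EBF3, EBF4, EMX2 and NCAM2 had none in either list. This list of genes was picked with earlier results known, and no test of it was made.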

How the data were processed

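Peaks of CHAF1A CUT&Tag in RBE cells were analysed from 2 lists, 1 per group of 2 samples; no source used here says whether samples were pooled. The submitters' processing notes name MACS2 2.1.2, Bowtie2 2.2.5, deepTools 3.4.3 and fastp 0.20.1, and build hg38. In the deposited lists the fold enrichment is a linear ratio, and p and q are deposited as −log10 values. The deposited score column follows −log10 p and was not used; summit offsets are as deposited. Both lists start at a −log10 p of 5.00. Positions are printed counting from 1.

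The members and lists were chosen with earlier results of these data known. Left out were 886 siCHAF1A and 868 control peaks on sequences other than chromosomes 1 to 22, X and Y. Genes came from a RefSeq table of GRCh38.p14; rows outside a chromosome's own block were not placed. A peak counted at a gene end when it overlapped by 1 bp a window of 1 kb on each side of either boundary, since strand was not used for genes. Summit reads k and background b were solved from fold = (k + 1)/(b + 1) and the Poisson tail; all 68 siCHAF1A and 34 control cluster peaks gave whole reads within 0.02. Overlaps, gene counts and solved reads were tested on simulated data. Named were all OR genes with a peak, OR51E1, OR51E2, the OR51B genes, the 8 strongest peaks between genes per list, non-OR genes inside the spans, and the olfactory signalling list. Some genes of these lists and of the marker lists are not reported here. The splits by GC content and by −log10 q, the OR pseudogenes and the ratio of the lists were added after the data had been seen. No test between conditions was made. Software was scipy 1.17.1, numpy 2.4.6, matplotlib 3.10.9 and pandas 2.3.3 under Python 3.11.15.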

Additional observations from a re-analysis of the deposited data

How the results depend on the processing

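Over 10 results and 11 settings, 70 of 84 alternative values stayed within the 95% interval of the reported value or, for counts of genes, within 1.5 times of it, and 14 did not. Part of the 70 could not have differed. Counting every row repeated the main run, because no rows of a list shared an interval. Equal numbers of peaks and scaling to the control background left the control list as it was, so its gene count, density and median fold were repeated. The siCHAF1A density of cluster peaks was 10.5 per Mb with −log10 q of at least 5, 3.64 with at least 10 and 9.42 with equal numbers of peaks per list, and the control density was 2.78 with −log10 q of at least 10. Median fold enrichment was 3.57, 4.49 and 3.69 in the siCHAF1A list under those settings and 4.63 in the control list with −log10 q of at least 10; a stricter threshold removes weak peaks by construction. With that threshold, 3 OR genes had a siCHAF1A peak and 2 a control peak, 2 the siCHAF1A only and 1 the control only. With a window of 3 kb, 16 genes had a siCHAF1A peak and 14 a siCHAF1A peak only. The siCHAF1A density was above the control density under every setting tried, by 1.29 to 2.06 times, where the whole lists had a ratio of 1.28. With equal numbers of peaks the intervals overlapped, at 6.85 to 12.6 and 5.04 to 10.2 per Mb. At −log10 q of at least 10 they also did, at 2.12 to 5.83 and 1.48 to 4.76. They overlapped too at −log10 q of at least 5, with neighbours under 50 kb and with scaling, and not under the other settings. Leaving out the peaks at ends of other protein-coding genes and scaling siCHAF1A pileups to the control background were chosen after seeing the data. No paired analysis was possible because each group has 1 list, and for the same reason no sample could be left out. OR genes resemble each other in sequence, and no source used here says how reads that match several copies were treated; peaks at OR genes are uncertain to that extent.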
